A study of Homo sapiens with 6 samples.

Results

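Gasdermins and inflammasome components, genes that drive lytic cell death and its inflammatory signals, were compared after Japoflavone B and after its solvent DMSO in A549, an established line from a human lung adenocarcinoma. The members are GSDME, GSDMD, GSDMB, NINJ1, NLRP1, CARD8, DPP9, PYCARD, CASP4 and IL18, each matched by its symbol to 1 row of the deposited gene table, 10 of 61806 rows in all. The treated group held 3 libraries of A549 cells, genotype WT, exposed for 24 h to Japoflavone B (titled LE-532) at a dose given as 40 with no unit, and the solvent group held 3 libraries of the same cells exposed for 24 h to DMSO. All cells had been plated 24 h before, in DMEM/F12 with serum and antibiotics. The study's title places GSDME-mediated pyroptosis at the end of the route by which the compound kills cells, and the comparison gives the mRNA of that machinery. Separate cultures are not recorded for the 3 libraries of a group, so a p-value covers the spread among these libraries, which may be technical.

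In pyroptosis, an inflammasome sensor such as NLRP1 or CARD8 assembles with caspase-1, directly or through the adaptor ASC, and the caspase matures IL-1 family cytokines and cleaves gasdermin D. The freed amino-terminal part of a gasdermin forms pores in the plasma membrane, and NINJ1 then tears the membrane open. Gasdermin E enters the same final step after cleavage during apoptotic signalling. DPP9 holds NLRP1 and CARD8 inactive. RNA counts measure none of the cleavage steps.

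Libraries held 15298531 to 21744407 gene counts. Mitochondrial genes took 8.33% to 8.58% of the counts after Japoflavone B and 3.97% to 4.70% after DMSO. All 6 epithelial markers reached 1 FPKM (the deposited level, a count scaled by exonic length and by the library's total) in at least 1 library, EPCAM in DMSO replicate 3 alone, at 1.08. Their summed level was 562 to 596 FPKM after Japoflavone B and 1150 to 1320 FPKM after DMSO. Of 9 leukocyte markers, the pan-leukocyte gene PTPRC and the myeloid genes TYROBP and AIF1 were listed at 0 in all 6 libraries. The leukocyte markers summed to 0.65 to 0.89 FPKM after Japoflavone B and to 2.43 to 3.45 FPKM after DMSO, and CD14, the one that reached 1 FPKM, had 0.15 to 0.4 FPKM after Japoflavone B and 2.07 to 3.02 FPKM after DMSO. Of the 6 fibroblast markers 1, COL1A1, reached 1 FPKM, and the list summed to 0.67 to 0.9 FPKM after Japoflavone B and 4.83 to 5.41 FPKM after DMSO. The 3 endothelial markers summed to 0.07 FPKM at most. In such bulk samples fewer cells that make a transcript and less transcript per cell cannot be told apart.

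Of the 10 genes, 4 rose (NLRP1, NINJ1, IL18 and GSDME), 4 fell (CARD8, PYCARD, CASP4 and GSDMD) and 2 (GSDMB and DPP9) did not pass the threshold, an adjusted p of 0.05 in edgeR's quasi-likelihood test over all genes. Among all 16082 genes tested 70.0% were called, 34.7% higher and 35.4% lower, so the 80.0% called among the 10 is near the share in the whole table. Their median log2 fold change was 0.08, and that of all tested genes was -0.00. CARD8, PYCARD and NLRP1 changed by at least 2-fold, as did 24.7% of all genes tested. All 10 genes passed the filter on low counts, but NLRP1 passed it through the treated libraries alone, so a difference was built into its being tested. Of the calls over all genes, 49.5% were higher. Limma on log2(TPM + 1), where TPM are counts per length scaled to the same total in every library, gave 35.0%, with a median shift per gene of -0.21 on the log2 scale, and scaling by library totals alone shifted the median by -0.10.

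**Figure D1:**
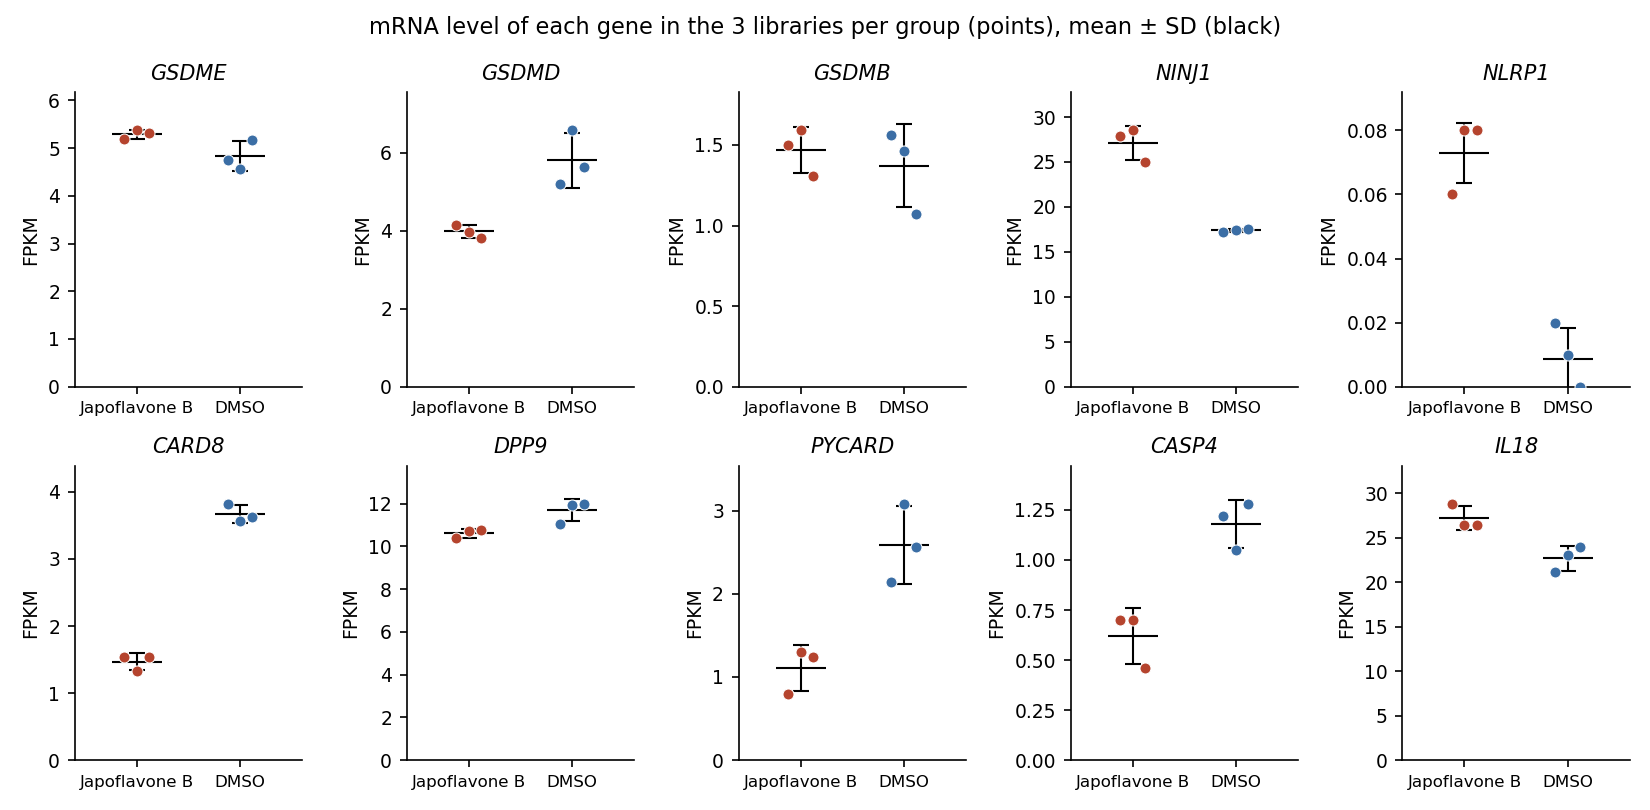
FPKM of the 10 genes (vertical axes, each from 0 with its own range) in the 3 Japoflavone B libraries (left in each panel) and the 3 DMSO libraries (right), with a black mean ± SD. The groups overlap for GSDMB alone; NINJ1, IL18, GSDME and NLRP1 lie higher after Japoflavone B, and the other 5 genes lie lower, DPP9 by the least.

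The level per length spanned a wide range among the 10 genes. After Japoflavone B the order ran from IL18 and NINJ1, whose libraries overlapped at 25.04 to 28.78 FPKM, through DPP9, GSDME and GSDMD to GSDMB and CARD8, which overlapped at 1.31 to 1.59 FPKM, and ended with PYCARD, CASP4 and NLRP1. After DMSO it ran IL18, NINJ1, DPP9, GSDMD, GSDME, CARD8, PYCARD, GSDMB, CASP4, NLRP1, and GSDMB and CASP4 were the neighbours whose libraries overlapped. In these FPKM the groups did not overlap in 9 of the 10 genes, 4 higher and 5 lower, against 71.6% of all genes tested, 30.9% higher and 40.7% lower. FPKM are scaled by library totals and the fold changes below by trimmed-mean factors, so the ratio of FPKM can differ from the fold.

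Promoters of 4 called genes are shown because 2 of them (GSDME and NINJ1) rose and 2 (CASP4 and CARD8) fell. The sequences are RefSeq's on GRCh38.p14, minus strand of each chromosome, read 5′ to 3′, with 250 bases before and 50 bases after the start site. Capitals mark matches on either strand to any of the 11 motifs searched.
GSDME, chr7:24757415-24757714: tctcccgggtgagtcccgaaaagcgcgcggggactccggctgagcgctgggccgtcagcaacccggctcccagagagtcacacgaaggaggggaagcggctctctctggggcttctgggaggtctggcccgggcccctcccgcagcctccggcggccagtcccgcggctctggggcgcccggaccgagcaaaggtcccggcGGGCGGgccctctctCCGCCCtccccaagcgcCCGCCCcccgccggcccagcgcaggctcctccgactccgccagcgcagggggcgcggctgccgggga
NINJ1, chr9:93134202-93134501: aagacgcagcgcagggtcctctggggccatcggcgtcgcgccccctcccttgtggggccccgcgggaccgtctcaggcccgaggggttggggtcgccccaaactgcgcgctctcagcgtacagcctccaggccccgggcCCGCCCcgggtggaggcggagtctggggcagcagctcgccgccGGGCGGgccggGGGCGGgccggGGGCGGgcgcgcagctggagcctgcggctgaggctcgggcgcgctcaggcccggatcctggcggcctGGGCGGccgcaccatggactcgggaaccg
CASP4, chr11:104968525-104968824: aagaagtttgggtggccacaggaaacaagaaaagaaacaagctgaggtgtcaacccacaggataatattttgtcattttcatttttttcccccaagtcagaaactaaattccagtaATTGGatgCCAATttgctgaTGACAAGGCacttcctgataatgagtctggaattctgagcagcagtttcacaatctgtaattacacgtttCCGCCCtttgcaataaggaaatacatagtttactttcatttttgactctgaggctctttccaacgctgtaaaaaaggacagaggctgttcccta
CARD8, chr19:48255897-48256196: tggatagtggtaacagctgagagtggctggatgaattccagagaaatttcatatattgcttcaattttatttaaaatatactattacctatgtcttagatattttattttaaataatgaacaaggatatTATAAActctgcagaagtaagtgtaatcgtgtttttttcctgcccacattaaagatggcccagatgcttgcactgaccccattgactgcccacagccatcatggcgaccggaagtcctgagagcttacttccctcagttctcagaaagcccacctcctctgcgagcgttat
The motifs were the AP-1 site (TGANTCA), the CRE (TGACGTCA), the antioxidant element (TGACNNNGC), the ATF4-type element (TGATGNAA), the GC box (GGGCGG), the CCAAT box (CCAAT), the TATA box (TATAAA), the E-box (CACGTG), the interferon element (GAAANNGAAA), the NF-kB site and the p53 half-site. GSDME held 3 GC boxes, whose first bases lie at -49, -34 and -17 from the start site, and NINJ1 held 5, of which 4 lie before the start and 1 after it. GC boxes are in 45.0% of the 35116 promoters in the table. CASP4 held 1 GC box, a pair of CCAAT boxes (in 34.6% of promoters) and 1 antioxidant element (in 13.3%). CARD8 at this start site, which is the gene's end coordinate in the deposited table, held 1 TATA box (in 11.5%), at -121. No 2 matches in these 4 windows overlapped. The GC content was 77.0% for GSDME, 79.0% for NINJ1, 39.7% for CASP4 and 40.0% for CARD8, against a median of 58.7%. PYCARD, which also fell, had 72.0%. Of the 10 genes, 6 had promoters examined here, 14 in all: GSDME, NINJ1, CASP4, PYCARD, DPP9 and CARD8. Among these, DPP9 and CARD8 have 5 start sites each. Promoters of GSDMD, GSDMB, NLRP1 and IL18 are not among the 14, so the matches below do not cover them. AP-1, CRE and ATF4-type letters matched in none of the 14, and a p53 half-site matched in 1, at another CARD8 start site. AP-1 letters are in 7.71% of all promoters, the CRE in 1.85%, the ATF4-type element in 3.62% and the p53 half-site in 6.63%. The E-box is in 7.26%, the interferon element in 3.57% and the NF-kB site in 7.73%. E-box letters matched in none of the 14, the NF-kB site in 3 and the interferon element in 2, all at CARD8 start sites other than the one printed. The windows of the CARD8 start sites 48249847 and 48249828 overlap, so the 2 interferon matches are the same stretch. An NF-kB match and an antioxidant element are likewise shared by these windows. A match of letters is a description, not a bound site.

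Among the pore-forming gasdermins, GSDME rose slightly and GSDMD fell. GSDME (ENSG00000105928, chromosome 7, 24698355 to 24757940, GRCh38, minus strand) encodes gasdermin E, the pore-former that links apoptotic signalling to membrane lysis. It had 5.19, 5.37 and 5.31 FPKM after Japoflavone B, against 4.75, 4.57 and 5.18 FPKM after DMSO, on 726 to 884 and 681 to 854 counts per library. Every treated library lay above every DMSO library, the nearest pair by 5.19 to 5.18. The log2 fold change was 0.24 ± 0.07 (SE; 95% interval 0.09 to 0.38; edgeR adjusted p = 0.00487), 1.18-fold, and 76.0% of tested genes had a larger absolute change. The call was lost with library totals alone (log2 0.13, edgeR adjusted p = 0.0934), a scaling that called 29.6% of all genes higher, and as TPM (0.02, limma adjusted p = 0.834). It held with mitochondrial genes left out of the totals, an alternative chosen after seeing the data (0.20, edgeR adjusted p = 0.0157).

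GSDMD (ENSG00000104518, chromosome 8, 143553207 to 143563062, plus strand) encodes gasdermin D, the pore-former that inflammatory caspases cleave. It had 4.15, 3.97 and 3.81 FPKM after Japoflavone B, against 5.19, 6.57 and 5.63 FPKM after DMSO. The groups stood clear of each other, with the wider spread among the DMSO libraries. GSDMD fell by 0.44 ± 0.09 on the log2 scale (SE; edgeR adjusted p = 1.39e-04), 1.36-fold lower. An unnamed gene on the opposite strand within its span had 192 counts after Japoflavone B and 385 after DMSO, and the strand setting of the counting is not given in the sources used here, so reads of overlapping genes on opposite strands may not be told apart.

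GSDMB (ENSG00000073605, chromosome 17, 39904595 to 39919854, minus strand) encodes gasdermin B, a target of granzyme A. Its libraries had 1.5, 1.59 and 1.31 FPKM after Japoflavone B and 1.56, 1.46 and 1.07 FPKM after DMSO. The groups overlapped, and the log2 fold change of 0.19 had a 95% interval of -0.11 to 0.49 (edgeR adjusted p = 0.249) and leaves room for a rise of up to the upper bound. GSDMA and GSDMC had 1 and 2 counts over the treated libraries, against 0 and 1 over the DMSO libraries. PJVK, the family member linked to hearing, averaged 0.387 ± 0.0785 FPKM after Japoflavone B and 0.748 ± 0.0786 FPKM after DMSO (SD, n = 3) and fell by 0.85 on the log2 scale (edgeR adjusted p = 0.00387).

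These changes altered the make-up of gasdermin mRNA, a measure within each library that does not depend on the scaling between libraries. GSDME made up 46.5%, 47.2% and 48.8% of the summed FPKM of the 6 gasdermin genes after Japoflavone B, against 39%, 34.2% and 40.6% after DMSO. GSDMD made up 37.1%, 34.9% and 35% after Japoflavone B, against 42.7%, 49.2% and 44.2% after DMSO. Per length, GSDME was the more abundant of the pair in all 3 treated libraries and GSDMD in all 3 DMSO libraries. In counts not divided by length GSDME was the higher in every library, with 850, 854 and 681 against 550, 726 and 438 after DMSO. The order within a library thus depends on the deposited exonic sizes, 8598 bases for GSDME and 5085 for GSDMD, while the difference between the groups does not. The log2 ratio of GSDME to GSDMD was 0.32, 0.43 and 0.48 after Japoflavone B and -0.13, -0.52 and -0.12 after DMSO, a difference of 0.67 between the group means (exact two-sided permutation test over 6 libraries, p = 0.1, the smallest that 3 against 3 allows). The summed gasdermin level was 11.1 ± 0.244 FPKM after Japoflavone B and 12.8 ± 0.58 FPKM after DMSO (SD, n = 3).

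**Figure D2:**
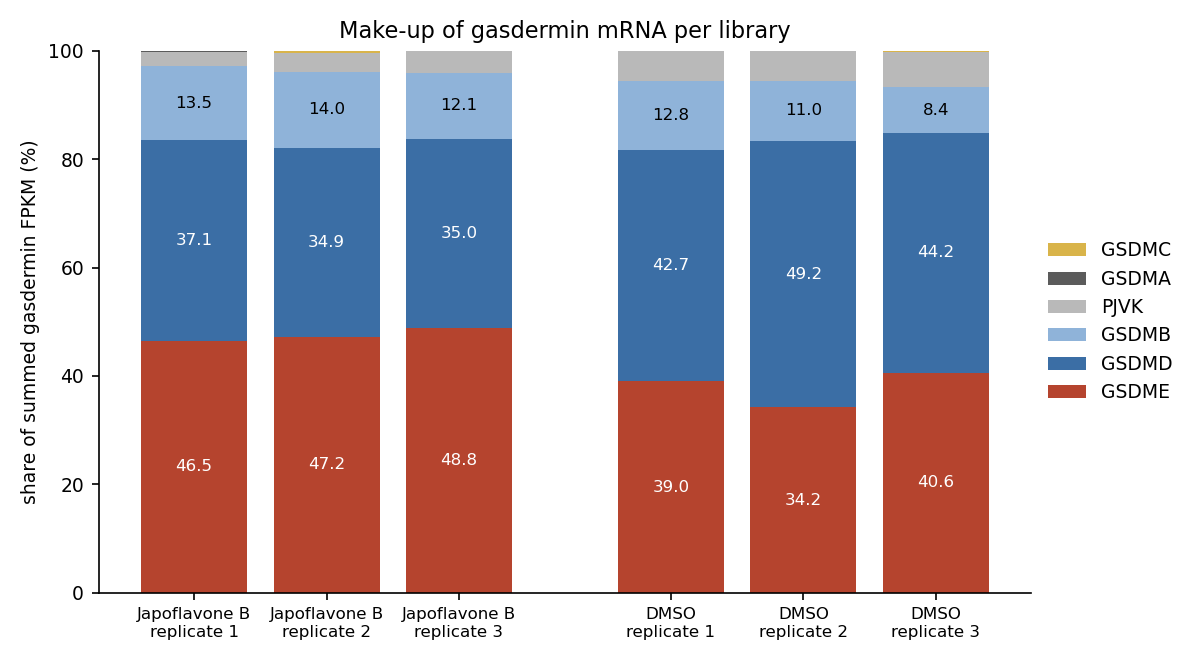
Share of each gasdermin gene in the summed gasdermin FPKM (vertical axis, percent) in each of the 3 Japoflavone B libraries (left) and the 3 DMSO libraries (right). The GSDME segment runs from 46.5% to 48.8% after Japoflavone B and from 34.2% to 40.6% after DMSO, and the GSDMD segment is the larger of the pair after DMSO.

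NINJ1 rose. The gene (ENSG00000131669, chromosome 9, 93121496 to 93134251, minus strand) encodes ninjurin 1, the membrane protein that ruptures the plasma membrane late in lytic death. It had 27.86, 28.51 and 25.04 FPKM after Japoflavone B, against 17.17, 17.45 and 17.52 FPKM after DMSO. The DMSO libraries lay within 0.35 FPKM of each other and every treated library was above them. The log2 fold change was 0.74 ± 0.07 (SE; 95% interval 0.61 to 0.88; edgeR adjusted p = 9.49e-11), 1.68-fold higher, and 36.1% of tested genes changed by more. Its paralog NINJ2 had 5 counts over the treated libraries and 32 over the DMSO libraries, too few for the fit, a depth-scaled ratio of 0.167 (exact 95% binomial interval 0.0509 to 0.433, counting error only).

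Of the sensors, CARD8 fell, and NLRP1 was called higher at a level near the detection limit. CARD8 (ENSG00000105483, chromosome 19, 48180770 to 48255946, minus strand), an inflammasome sensor that recruits caspase-1, had 1.54, 1.33 and 1.54 FPKM after Japoflavone B, against 3.82, 3.56 and 3.62 FPKM after DMSO. The highest treated library lay below the lowest DMSO library by more than the spread within either group. CARD8 fell by 1.22 ± 0.08 on the log2 scale (SE; edgeR adjusted p = 1.48e-13), 2.32-fold lower, and 18.2% of tested genes had a larger absolute change. In the annotation of GENCODE 29, 5.4% of its exonic bases are also exons of other genes, all on the opposite strand. ZSWIM9 shares 313 bases and had 1362 counts after Japoflavone B and 1060 after DMSO. An unnamed antisense gene shares 377 bases and had 72 counts after Japoflavone B and 19 after DMSO. CARD8-AS1 shares 3 bases and had 22 counts in each group.

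NLRP1 (ENSG00000091592, chromosome 17, 5499415 to 5619424, minus strand), a sensor best known from keratinocytes, was near the detection limit. It had 25, 24 and 30 counts after Japoflavone B, against 8, 3 and 0 counts after DMSO, or 0.06, 0.08 and 0.08 FPKM against 0.02, 0.01 and 0 FPKM. Every treated library had more counts than every DMSO library, at a level that remained the lowest of the 10 genes. The log2 fold change was 3.02 ± 0.52 (SE; edgeR adjusted p = 9.14e-06), and the summed counts of 79 and 11 gave a depth-scaled ratio of 7.7 (exact 95% binomial interval 4.08 to 16, counting error only). Since NLRP1 passed the count filter through the treated libraries alone, these values describe the difference and do not test it. The deposited exonic size of NLRP1 is 20157 bases, against 12808 in GENCODE 29, so its level per length depends on the annotation. DMSO replicate 1 held most of the DMSO counts, and without it the log2 fold change was 4.18. On log2(FPKM + 1) with limma the change was 0.09 and the call was lost (adjusted p = 0.059).

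Few other sensors on the list had enough counts for the fit. Of 11 beside NLRP1 and CARD8, 2 were tested: NLRP2, a pyrin-domain relative of NLRP3, averaged 8.03 ± 0.186 FPKM after Japoflavone B and 11.4 ± 0.406 FPKM after DMSO (SD, n = 3) and fell by 0.41 on the log2 scale (edgeR adjusted p = 1.96e-06), and the DNA sensor IFI16 did not pass (log2 0.17, adjusted p = 0.583). NLRP3, the best studied sensor, had 4 counts over the treated libraries and 0 over the DMSO libraries, and the DNA sensor AIM2 had 0 counts in both groups.

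DPP9 (ENSG00000142002, chromosome 19, 4674341 to 4724673, minus strand), the peptidase that restrains both NLRP1 and CARD8, had the smallest absolute log2 change of the 10 genes on trimmed-mean scaling, though not with library totals alone, where GSDMB had 0.09, nor as TPM, where GSDMB had 0.003. It had 10.39, 10.72 and 10.75 FPKM after Japoflavone B, against 11.03, 11.94 and 11.98 FPKM after DMSO. In FPKM the treated libraries lay just below the DMSO libraries, while on trimmed-mean scaling the log2 fold change was -0.03 with a 95% interval of -0.14 to 0.08 (edgeR adjusted p = 0.622). With library totals alone it was called lower (log2 -0.13, edgeR adjusted p = 0.0304), as were 40.2% of all genes, and likewise as TPM (-0.24, limma adjusted p = 0.00246). In GENCODE 29, 18.4% of its exonic bases lie opposite DPP9-AS1, which had 6 counts after Japoflavone B and 14 after DMSO, and whether reads over these bases were counted for DPP9 is likewise not known. DPP8, its close relative, averaged 7.99 ± 0.371 FPKM after Japoflavone B and 10.1 ± 0.893 FPKM after DMSO (SD, n = 3) and fell by 0.23 on the log2 scale (edgeR adjusted p = 0.00184).

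Ratios within a library set the sensors against their inhibitor. The log2 ratio of CARD8 to DPP9 per length was -2.76, -3.01 and -2.80 after Japoflavone B and -1.53, -1.75 and -1.72 after DMSO. CARD8 thus stood at 0.138 of the DPP9 level after Japoflavone B and 0.315 after DMSO (geometric means), the groups did not overlap, and the exact two-sided permutation test gave p = 0.1, the smallest possible. NLRP1 stood at 0.00697 of the DPP9 level after Japoflavone B and 0.00055 after DMSO, with 0.5 count added to each library because DMSO replicate 3 had no NLRP1 count. That log2 difference of 3.66 was 2.65 without DMSO replicate 3 and 4.53 without DMSO replicate 1, and it is given as a description, since NLRP1 passed the count filter through the treated libraries alone.

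**Figure D3:**
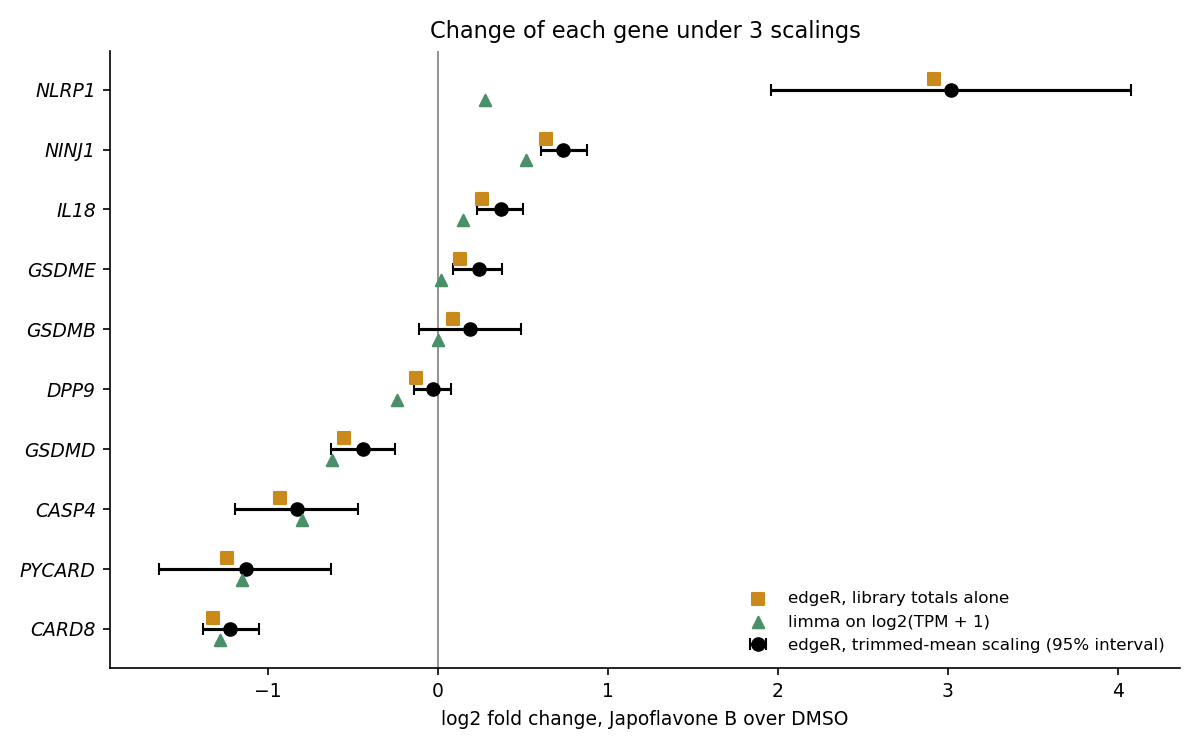
Log2 fold change of Japoflavone B over DMSO (horizontal axis) for the 10 genes: black points with 95% intervals are edgeR on trimmed-mean scaling, squares edgeR on library totals, triangles limma on log2(TPM + 1). CARD8, PYCARD, CASP4 and GSDMD lie below 0 and NINJ1 and IL18 above 0 on all 3 scales, GSDME comes to 0.02 as TPM, and the pseudocount compresses NLRP1 to 0.28.

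The adaptor and the inflammatory caspase fell. PYCARD (ENSG00000103490, chromosome 16, 31201486 to 31203450, minus strand) encodes ASC, the adaptor that joins sensors to caspase-1. It had 0.79, 1.3 and 1.24 FPKM after Japoflavone B, against 2.14, 3.08 and 2.56 FPKM after DMSO, on 26 to 38 and 65 to 111 counts per library. The groups did not overlap, although the spread within each was wide. PYCARD fell by 1.13 ± 0.25 on the log2 scale (SE; edgeR adjusted p = 1.89e-04), 2.19-fold lower. In GENCODE 29, 59.7% of its exonic bases lie opposite PYCARD-AS1, which had 1 count after Japoflavone B and 0 after DMSO. The strand setting is not given, so whether reads over the shared bases were counted for PYCARD is not known.

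CASP4 (ENSG00000196954, chromosome 11, 104942866 to 104969366, minus strand) encodes the caspase that binds bacterial lipopolysaccharide in the cytosol and cleaves gasdermin D. It had 0.7, 0.7 and 0.46 FPKM after Japoflavone B, against 1.22, 1.05 and 1.28 FPKM after DMSO. The DMSO libraries were all higher. CASP4 fell by 0.83 ± 0.18 on the log2 scale (SE; edgeR adjusted p = 1.58e-04), 1.78-fold lower. Of the other 6 genes on the adaptor and caspase list 1 was tested. It was the initiator caspase gene CASP8, which fell by 0.27 on the log2 scale (5.14 ± 0.161 FPKM after Japoflavone B, 6.63 ± 0.0765 FPKM after DMSO; SD, n = 3; edgeR adjusted p = 0.00128). CASP1, the caspase that matures IL-1β and IL-18, had 1 count over the treated libraries and 35 over the DMSO libraries, a depth-scaled ratio of 0.0306 (exact 95% binomial interval 7.54e-04 to 0.182, counting error only). The sum of the leukocyte markers was also lower after Japoflavone B, but the markers did not move together. CD14 and ITGAM were lower in every treated library than in every DMSO library, and LYZ and CSF1R were higher, at 0.14 FPKM at most. All libraries came from the A549 line, and PTPRC, TYROBP and AIF1 were listed at 0 in all 6. Any part of leukocytes in these low inflammasome transcripts was not tested.

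IL18 rose. The gene (ENSG00000150782, chromosome 11, 112143253 to 112164096, minus strand) encodes interleukin-18, a cytokine made by epithelial cells as an inactive precursor. It had 28.78, 26.4 and 26.44 FPKM after Japoflavone B, against 21.16, 23.07 and 23.91 FPKM after DMSO. Each treated library was above each DMSO library. The log2 fold change was 0.37 ± 0.07 (SE; 95% interval 0.23 to 0.50; edgeR adjusted p = 1.56e-05), 1.29-fold, and 63.6% of tested genes changed by more. IL18 was 44.8 times the level of CASP4 per length after Japoflavone B and 19.2 times after DMSO (geometric means; p = 0.1, the smallest possible, by the same exact permutation test on log2 ratios). Its soluble antagonist IL18BP fell by 0.52 on the log2 scale (1.08 ± 0.203 FPKM after Japoflavone B, 1.66 ± 0.183 FPKM after DMSO; SD, n = 3; edgeR adjusted p = 0.00302), while the receptor gene IL18R1 did not pass (31 counts after Japoflavone B, 56 after DMSO; adjusted p = 0.242). IL1A and IL1B, which encode other precursors of the family, had 8 and 5 counts over the treated libraries, against 2 and 3 over the DMSO libraries.

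Beyond the 10 genes, 67 further genes of pyroptosis and inflammasome signalling were listed by role. Of these 39 were tested; 16 rose, 15 fell and 8 did not pass, with a median log2 fold change of -0.05. The share called was 79.5%, beside 70.0% of all genes, and 22 of the 67 stayed under 0.1 FPKM in every library. As TPM the number that rose was 10.

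The called members of each role are given below, with no test of a difference between roles. Of 9 genes listed as gasdermin regulators, 7 were tested, and 5 rose and 2 fell. The palmitoyltransferase ZDHHC9 averaged 28.3 ± 0.329 FPKM after Japoflavone B and 13.5 ± 0.345 FPKM after DMSO (SD, n = 3; log2 1.17, edgeR adjusted p = 7.45e-17). ZDHHC5, of the same enzyme family, rose by 0.46 on the log2 scale (edgeR adjusted p = 7.02e-09), and ZDHHC7 by 0.32 (edgeR adjusted p = 2.11e-05). RRAGC and RRAGA, the Rag GTPases of lysosomal nutrient sensing, rose by 0.57 and 0.26 (edgeR adjusted p = 1.71e-05 and 8.26e-04), and the FPKM of RRAGA overlapped between the groups. LAMTOR1, the Ragulator subunit that anchors them, fell by 0.42 (edgeR adjusted p = 3.86e-06), as did the mitochondrial NLR gene NLRX1, by 0.44 (edgeR adjusted p = 1.60e-04).

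The 11 genes listed for membrane repair by ESCRT-III and its partners, which pinches off damaged membrane, are a selection. All 11 were tested, and 5 rose, 2 fell and 4 did not pass. The ATPase gene VPS4A averaged 17.3 ± 0.205 FPKM after Japoflavone B and 12.6 ± 0.0703 FPKM after DMSO (SD, n = 3; log2 0.56, edgeR adjusted p = 9.45e-10). TSG101 and CHMP3 rose by 0.40 and 0.33 on the log2 scale (edgeR adjusted p = 3.95e-07 and 2.63e-06), and CHMP2A and VPS4B by 0.27 and 0.25 (edgeR adjusted p = 3.17e-04 and 0.00146). CHMP2B averaged 6.35 ± 0.144 FPKM after Japoflavone B and 13.4 ± 1.21 FPKM after DMSO (SD, n = 3) and fell by 0.98 (edgeR adjusted p = 3.14e-13); CHMP6 fell by 0.52 (edgeR adjusted p = 1.84e-04).

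Of 9 sensor regulators beside DPP9, 7 were tested, and 2 rose and 4 fell. The channel gene PANX1 averaged 13 ± 0.339 FPKM after Japoflavone B and 7.61 ± 0.993 FPKM after DMSO (SD, n = 3; log2 0.87, edgeR adjusted p = 1.28e-09), and NEK7, a kinase that binds NLRP3, rose by 0.14 (edgeR adjusted p = 0.0477), although its FPKM overlapped between the groups. Thioredoxin, TXN, averaged 269 ± 9.59 FPKM after Japoflavone B and 499 ± 28.8 FPKM after DMSO (SD, n = 3; log2 -0.79, edgeR adjusted p = 2.14e-13). TXNIP, the thioredoxin-binding protein, had 20 counts over the treated libraries and 94 over the DMSO libraries and fell by 2.00 on the log2 scale (edgeR adjusted p = 1.12e-04). It passed the filter on low counts through the DMSO libraries and would not have passed on the treated libraries alone. A difference was thus built into its being tested, and its change is given as a description. The deubiquitinase BRCC3 fell by 0.26 (edgeR adjusted p = 0.00251).

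Of the 9 cytokine, alarmin and receptor genes beside IL18, 5 were tested; 1 rose and 3 fell. IL1R1, the receptor for IL-1, averaged 3.83 ± 0.329 FPKM after Japoflavone B and 11.7 ± 0.948 FPKM after DMSO (SD, n = 3; log2 -1.51, edgeR adjusted p = 2.88e-16), whereas its accessory chain IL1RAP averaged 1.71 ± 0.115 FPKM after Japoflavone B and 0.683 ± 0.0773 FPKM after DMSO (log2 1.42, edgeR adjusted p = 1.52e-11). The alarmin HMGB1 fell by 1.57 on the log2 scale (edgeR adjusted p = 5.19e-20); its reads may be shared with its many processed pseudogenes. Of 8 genes of the guanylate-binding protein arm, which exposes bacterial lipopolysaccharide to CASP4, 5 were tested. GBP2, GBP3 and the transcription factor IRF2 rose by 1.01, 0.84 and 0.40 (edgeR adjusted p = 6.70e-04, 0.00813 and 1.11e-04), and IRF1 fell by 0.81 (edgeR adjusted p = 6.59e-07). GBP2 and GBP3 stood under 1 FPKM in every library.

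**Figure D4:**
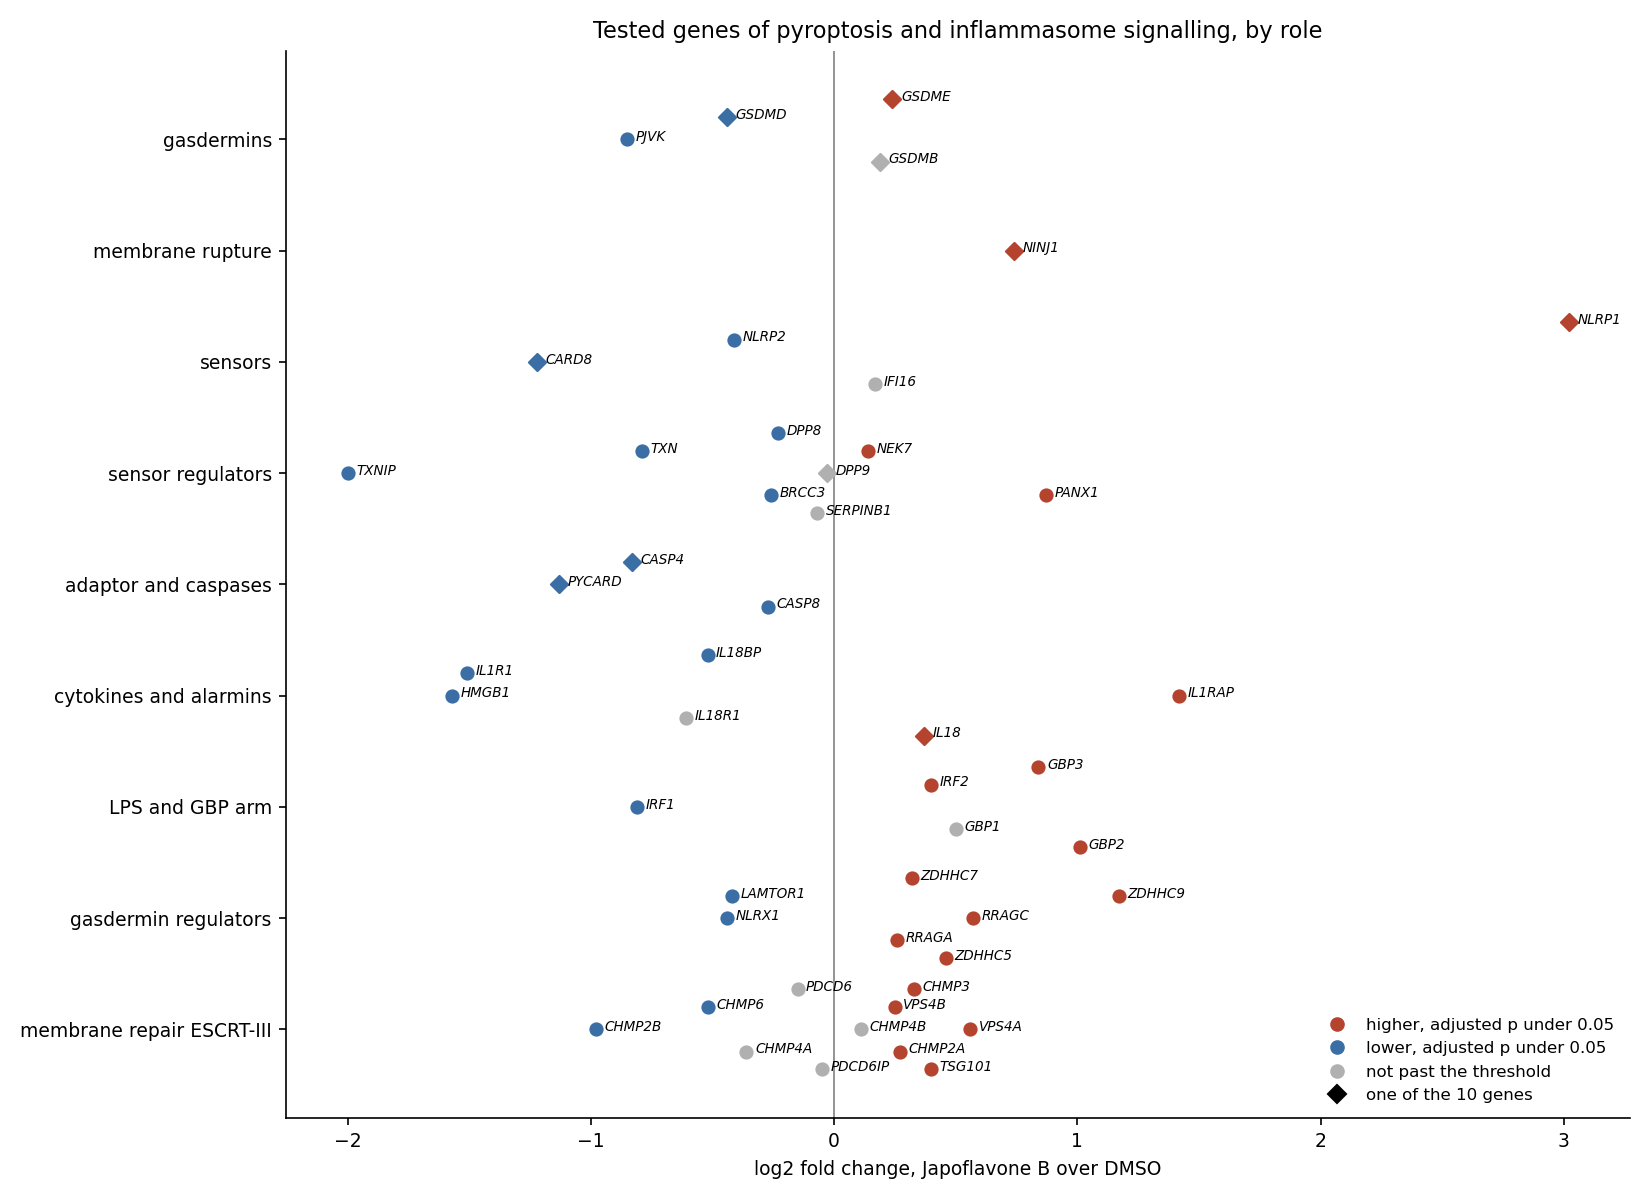
Log2 fold change of Japoflavone B over DMSO (horizontal axis) for each tested gene of the pathway, in rows by role; red points were called higher, blue points lower and grey points neither, and diamonds are the 10 genes. Called points lie on both sides of 0 in every row with more than 1 tested gene except that of the adaptor and caspases, where all 3 fell.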

How the data were processed

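Poly(A) RNA was selected with oligo(dT) beads and copied with random primers, per the labels' protocols. Tools listed in the submitters' processing notes, without roles, are HTSeq 0.6.1, HISAT2 2.0.1, DESeq2 and cutadapt 1.9.1, with the build GRCh38; the annotation release and strand setting are not given in the sources used here. The deposited table holds raw counts per gene and FPKM, which the authors made from counts, exonic size and column total (largest gap from recomputed values 0.005). The exonic size, another deposited column, is in bases.

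Counts were filtered with filterByExpr (minimum count 10, minimum total 15; 16082 genes kept), scaled by trimmed-mean factors (0.957 to 0.970 for Japoflavone B, 1.03 to 1.04 for DMSO) and fitted with edgeR 4.0.16 in R 4.3.3 (quasi-likelihood, group as the only term), adjusting p-values over every tested gene by Benjamini-Hochberg. Alternatives were other filters and scalings, DESeq2 1.42.0, limma 3.58.1 on log2 FPKM or TPM, the replicate block and each library left out; totals without mitochondrial genes were added after seeing the data. The fit was also run on simulated counts with 1 common dispersion and few changed genes, balanced in direction. Since 70.0% of tested genes were called in the data, that simulation does not bear on the choice of scaling. The genes and lists were chosen with earlier results of these data known. Named beside the 10 genes are up to 4 called genes of each role by adjusted p with at least 1 FPKM, all gasdermins and NINJ2; any other was named after its values were seen. Overlapping exons were read from GENCODE 29 on the same build. Some genes of the wider lists are not reported here.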

Additional observations from a re-analysis of the deposited data

How the results depend on the processing

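Across 18 alternative settings the direction of all 10 genes was kept in every setting that tested them, and CARD8, NINJ1, IL18, GSDMD, PYCARD and CASP4 kept their calls. GSDME lost its call with library totals alone and in the 3 limma settings (adjusted p = 0.0934 to 0.834), DPP9 gained one with library totals alone and as TPM, and NLRP1 lost its call with limma on log2(FPKM + 1). That setting left 2 of the 10 genes higher, and a filter of at least 2 FPKM on average, which removed CASP4, PYCARD, NLRP1 and GSDMB, left 2 lower. Limma on log2(TPM + 1) left 10 of the listed further genes higher, against 16; for both limma settings the cause was not tested. Leaving out each library in turn kept the counts of 4 higher and 4 lower. The 4 higher include NLRP1, which passed the count filter through the treated libraries alone, so its call describes the difference and does not test it. In these fits GSDME ranged from 0.19 to 0.29 on the log2 scale (edgeR adjusted p at most 0.0442) and NLRP1 from 2.58 to 4.18.

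Libraries with the same replicate number were not treated as pairs, since the deviations of like-numbered libraries from their group means had correlations of 0.013, -0.004 and -0.045 across genes, and 1 of the 3 Japoflavone B libraries and 0 of the 3 DMSO libraries correlated best with their own number. With the replicate number as a block, 11120 genes were called instead of 11263, and 4 of the 10 genes were higher and 4 lower. Low counts limit NLRP1, PYCARD and CASP4, whose intervals are the widest.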
